A study of Homo sapiens with 3 samples.

Results

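The early growth response genes EGR1, EGR2 and EGR3, the orphan nuclear receptor genes NR4A1, NR4A2 and NR4A3, the immediate early gene IER2 and the Krüppel-like factor genes KLF2, KLF4 and KLF6 were followed in HGC-27 cells, a gastric cancer line of human origin. They are 10 of the 58735 genes in the deposited table, taken by gene symbol. The set was chosen by differences already seen between these libraries, so its levels and its differences from the control library are described and not tested. RNA-seq was deposited for 1 library with a control short hairpin RNA (shControl, genotype given as WT) and 2 libraries labelled shUSP16 (shUSP16-1 and shUSP16-2), in which the hairpin targets USP16, a deubiquitinase of histone H2A. The labels leave out whether the numbers mark different hairpins, clones, pools or repeat cultures, so any spread between shUSP16-1 and shUSP16-2 may be technical. All 3 libraries share the same growth text, 1640 medium with 10% fetal bovine serum and antibiotics at 5% CO2. The protocol common to all 3 also lists dexamethasone at 1 µM, isobutylmethylxanthine at 0.5 mM and later insulin at 10 µg/ml, and it is unclear whether these cells were given them.

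Immediate early genes are transcribed within minutes of a growth factor, serum, cAMP or stress signal, without new protein synthesis, and their mRNAs are short-lived. Signals through ERK reach the promoters by way of serum response factor (SRF) bound to CArG boxes with its ETS-type cofactors, and signals through cAMP reach them by way of CREB at cAMP response elements (CRE). EGR proteins are zinc finger transcription factors, NR4A proteins are nuclear receptors that act without a known natural ligand, and KLF proteins are zinc finger factors that bind GC-rich and CACCC sequences.

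The promoter windows of EGR1, EGR2 and KLF4 are shown because EGR1 and EGR2 alone among the members with a RefSeq entry held a CArG box, and because KLF4 was the member closest to its control level. Each is the 250 bases before a RefSeq start on GRCh38.p14, written 5′ to 3′ along the gene, with CArG boxes and short CRE sites (TGACG, on either strand) in capitals. EGR1 lies at chr5:138465229-138465478 on the plus strand, EGR2 at chr10:62816367-62816616 on the minus strand, and KLF4 at chr9:107489770-107490019 on the minus strand.
EGR1: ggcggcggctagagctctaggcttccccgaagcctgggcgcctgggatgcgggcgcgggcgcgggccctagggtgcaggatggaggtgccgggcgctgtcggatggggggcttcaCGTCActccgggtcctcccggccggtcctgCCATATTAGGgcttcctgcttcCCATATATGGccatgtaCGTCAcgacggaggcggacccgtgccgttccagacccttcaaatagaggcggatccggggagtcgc
EGR2: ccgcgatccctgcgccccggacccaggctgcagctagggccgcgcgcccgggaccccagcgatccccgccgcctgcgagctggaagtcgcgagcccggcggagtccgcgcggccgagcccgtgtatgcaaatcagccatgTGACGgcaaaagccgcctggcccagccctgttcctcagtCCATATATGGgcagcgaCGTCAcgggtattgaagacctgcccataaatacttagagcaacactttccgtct
KLF4: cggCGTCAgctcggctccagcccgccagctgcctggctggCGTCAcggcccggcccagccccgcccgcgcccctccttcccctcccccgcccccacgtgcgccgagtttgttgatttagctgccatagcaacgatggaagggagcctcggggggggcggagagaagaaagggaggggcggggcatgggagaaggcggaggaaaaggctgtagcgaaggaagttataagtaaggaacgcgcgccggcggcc

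EGR1 held 2 CArG boxes in this window, CCATATTAGG from 105 to 96 bases and CCATATATGG from 83 to 74 bases before the start. EGR2 held 1, CCATATATGG, from 71 to 62 bases before the start of its most downstream window, and none in its other windows. RefSeq windows were found for 8 of the 10 genes, 11 windows in all, and not for EGR3 and NR4A2. A CArG box was in 2 of these 11 windows and in 1.16% of all 35116 windows of the same length. A short CRE site was in 5 of the 11, those of EGR1, NR4A3, KLF4, IER2 and the same EGR2 window, and in 21.2% of all windows, whereas the full palindrome TGACGTCA was in 0 of 11 and 1.65% of all. The GC box GGGCGG was in 7 of the 11 and 42.6% of all windows. The median GC content was 69.2% in the 11 member windows and 58.0% in all windows. NR4A1, NR4A3, IER2, KLF2, KLF4 and KLF6 held no CArG box in any window. A box further from the start would not be seen in windows of this length. No relation between these motifs and the levels below was tested. These matches are letters in a window and say nothing of binding in HGC-27 cells.

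Reads could be recovered from FPKM (fragments per kilobase of gene, scaled to the library's total) and gene length, and summed to between 29530581 and 31187845 per library. USP16 itself was at 6.28 FPKM in shControl, 4.29 in shUSP16-1 and 5.98 in shUSP16-2. Values given as 3 numbers stand in this order of libraries throughout. Against shControl USP16 had ratios of 0.683 (0.621 to 0.749, exact binomial 95% interval, as throughout) for shUSP16-1 and 0.952 (0.875 to 1.04) for shUSP16-2. The latter was below 1 beyond counting error only when sums of reads served as totals (0.876, 0.805 to 0.953), and shUSP16-2 is called by its label below. All such intervals cover counting error only. Gastric epithelial markers were nearly absent, with a summed level of 0.206 to 0.718 FPKM. KRT19, MUC5AC and TFF1 had 0 reads, CDH1 had 0, 2 and 0, and KRT18 had 0, 0 and 1. KRT8 had 27, 12 and 9 reads and EPCAM 49, 30 and 12. Of 3 mesenchymal markers VIM was at 155 to 180 FPKM, FN1 at 0.605 to 1.05 FPKM and CDH2 at 2 to 10 reads. The name of the line comes from the labels, and these markers do not by themselves show a gastric epithelial origin. Of 5 fibroblast markers, 4 were above 1 mean FPKM, and the summed level of the 5 was 99.6 FPKM in shControl against 110 and 141 in shUSP16-1 and shUSP16-2, COL1A2 differing most (5.23, 6.97 and 11.3 FPKM) and DCN least (9.51, 8.71 and 12.2 FPKM). Of the 4 only COL1A1 and COL1A2 were higher than shControl in both, while DCN and LUM (32.2, 22.9 and 38.3 FPKM) were lower in shUSP16-1 and higher in shUSP16-2. limma called none of them, and voom on recovered reads called COL1A1 and COL1A2 higher. Endothelial markers summed to at most 0.0207 FPKM and blood markers to at most 0.426 FPKM, all of it CD14 (0, 24 and 19 reads). Of 5 adipocyte markers, ADIPOQ and LEP had 0 reads, FABP4 had 3, 0 and 0, and PLIN1 had 23, 22 and 7. The remaining marker, CFD, was at 54.2, 58.2 and 43.3 FPKM. Genes of the mitochondrial genome took 13.2%, 11.8% and 11.3% of reads in the same order of libraries. The summed fibroblast level was thus higher and the mitochondrial share lower in both libraries labelled shUSP16 than in shControl, and their part in the results below was not tested.

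Levels of the 10 genes spanned from 262.6 FPKM for EGR1 to 0.855 FPKM for NR4A3, as means over the 3 libraries. In shControl EGR1 was the 56th most abundant of 19951 protein-coding genes per length. After it came IER2 at a mean of 43.9 FPKM and NR4A1 at 11.4 FPKM, and the ranges of these genes over the libraries did not overlap. KLF4, EGR2, EGR3, KLF6 and KLF2 followed at 6.61, 6.33, 5.56, 5.24 and 4.10 FPKM, each overlapping the next in range, so their order is not settled. NR4A2 (1.30 FPKM) and NR4A3 also overlapped each other and lay below all others.

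**Figure D1:**
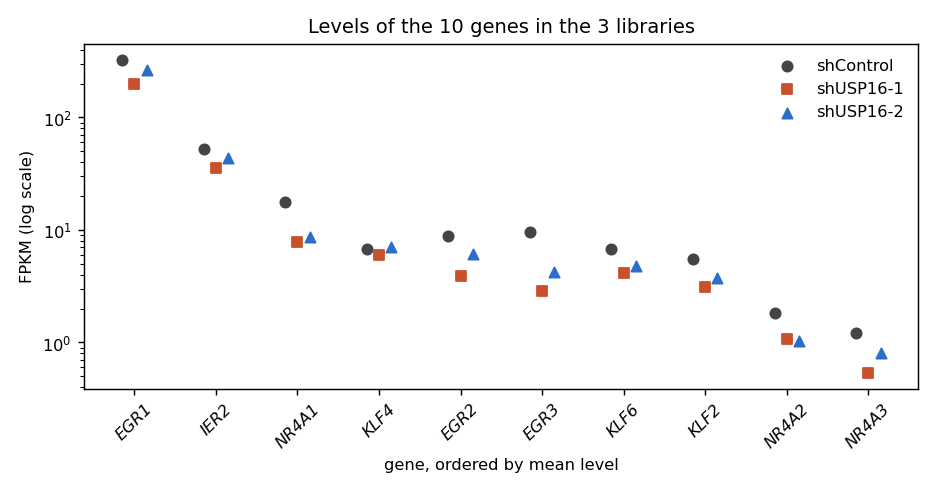
FPKM of each gene (log axis) in shControl (circles), shUSP16-1 (squares) and shUSP16-2 (triangles), 1 point per library, ordered by mean level. The shControl circle is the highest point for 9 of the 10 genes, KLF4 being the exception.

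The EGR genes were lower in both libraries labelled shUSP16 than in shControl, EGR3 most and EGR1 least. EGR1 (ENSG00000120738, chromosome 5, 138465490 to 138469315, plus strand, GRCh38) was at 327 FPKM in shControl, 197 in shUSP16-1 and 264 in shUSP16-2, from 33371, 18470 and 25684 reads. EGR1 binds GC-rich sites and switches on its own repressor NAB2 among other targets. Its ratios were 0.603 (0.592 to 0.614) and 0.808 (0.795 to 0.822), so with this many reads the libraries labelled shUSP16 differed from each other as well as from shControl beyond counting error. EGR2 (ENSG00000122877, chromosome 10, 62811996 to 62919900, minus strand), best known for its role in myelinating Schwann cells, was at 8.92, 3.94 and 6.15 FPKM in the same order. The EGR2 ratios were 0.441 (0.394 to 0.494) in shUSP16-1 and 0.689 (0.626 to 0.759) in shUSP16-2.

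EGR3, a family member known for its induction by calcium and antigen receptor signals (ENSG00000179388, chromosome 8, 22687659 to 22693302, minus strand), stood at 9.57, 2.85 and 4.26 FPKM. That is 3.35-fold and 2.25-fold lower, from 1513, 414 and 641 reads, the lowest ratios of the 10 genes in both libraries. Summed over the family, EGR mRNA went from 345 FPKM to 204 and 274, and EGR1 made up 94.6% to 96.7% of each sum. The remaining family member, EGR4, is not in the set and was too low to be fitted, with 89, 16 and 33 reads. The corepressor genes of EGR proteins did not share this direction as a pair, with NAB1 at 14.1, 12.4 and 13.1 FPKM and NAB2 at 10.2, 12.6 and 13.3 FPKM. Neither was called by limma (adjusted p = 0.638 for NAB1 and 0.341 for NAB2).

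The NR4A genes were lower in both libraries as well, and NR4A1 and NR4A2 by nearly the same amount in each. NR4A1 (ENSG00000123358, chromosome 12, 52022832 to 52059507, plus strand), also called NUR77, was at 17.7 FPKM in shControl, 7.89 in shUSP16-1 and 8.72 in shUSP16-2, with ratios of 0.446 (0.421 to 0.472) and 0.493 (0.467 to 0.520). Both libraries labelled shUSP16 lay close together and well below shControl. The noncoding gene AC025259.3 overlaps NR4A1 on the other strand and had 88, 35 and 23 reads, at most 2.09% of the NR4A1 reads in any library. No source used here states the strand setting of the counting, so reads of such a pair cannot be told apart.

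NR4A2 (ENSG00000153234, chromosome 2, 156324432 to 156342348, minus strand), also called NURR1 and needed for midbrain dopamine neurons, was at 1.81, 1.06 and 1.03 FPKM. With 234, 126 and 127 reads its intervals were wide, at ratios of 0.587 (0.469 to 0.732) and 0.570 (0.456 to 0.710). It was the only member not higher in shUSP16-2 than in shUSP16-1. NR4A3 (ENSG00000119508, chromosome 9, 99821855 to 99866891, plus strand), also called NOR1, was at 1.22, 0.535 and 0.807 FPKM from 251, 101 and 158 reads. Its ratios were 0.438 (0.344 to 0.554) and 0.661 (0.538 to 0.810), and its mean level was under the 1 FPKM set for the fit across all genes. Of the retinoid X receptor genes, whose products pair with NR4A1 and NR4A2, RXRA was at 5.07, 6.99 and 6.83 FPKM (limma adjusted p = 0.308), RXRB at 19.6, 22.0 and 18.5 FPKM (adjusted p = 0.916), and RXRG had no reads.

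IER2, a nuclear protein gene induced by serum (ENSG00000160888, chromosome 19, 13150415 to 13154908, plus strand), differed by less than the EGR and NR4A genes. It was at 52.1 FPKM in shControl, 35.7 in shUSP16-1 and 43.9 in shUSP16-2, from 5214, 3276 and 4182 reads. Its ratios were 0.684 (0.655 to 0.715) and 0.842 (0.809 to 0.877). The 3 levels were spread evenly, with shUSP16-2 about midway between shUSP16-1 and shControl.

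**Figure D2:**
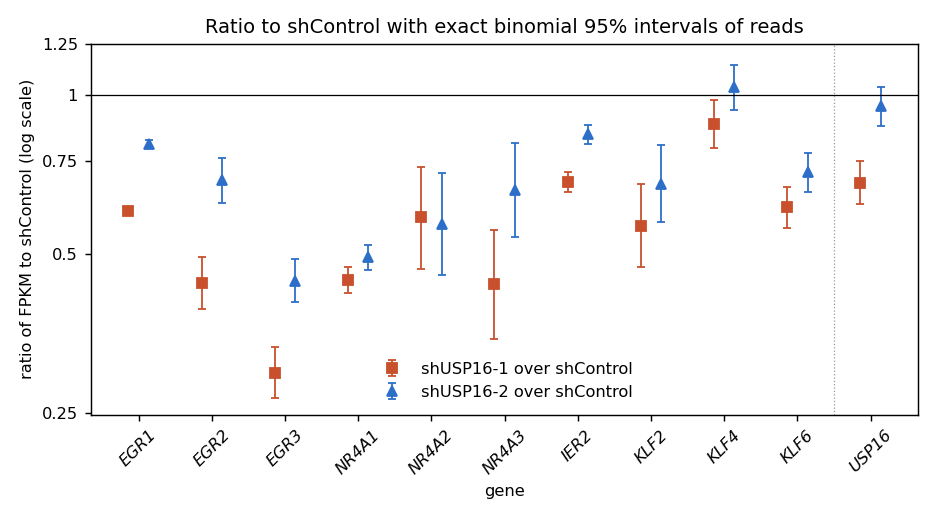
Ratio of FPKM to shControl (log axis) in shUSP16-1 (squares) and shUSP16-2 (triangles) for the 10 genes and, right of the dotted line, USP16; bars are exact binomial 95% intervals of the reads and cover counting error only. EGR3 is lowest in both libraries (0.298 and 0.445), and the shUSP16-2 intervals of KLF4 and USP16 include 1.

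The KLF genes split, with KLF2 and KLF6 lower in both libraries and KLF4 near its control level. KLF2 (ENSG00000127528, chromosome 19, 16324817 to 16327874, plus strand), known for its induction by shear stress in endothelium, was at 5.48, 3.10 and 3.72 FPKM from 360, 187 and 233 reads. The KLF2 ratios were 0.566 (0.472 to 0.677) and 0.680 (0.574 to 0.804). KLF6 (ENSG00000067082, chromosome 10, 3775996 to 3785281, minus strand), studied as a growth-restraining factor in epithelial tumours, was at 6.75, 4.14 and 4.82 FPKM. The KLF6 ratios were 0.613 (0.560 to 0.670) and 0.715 (0.656 to 0.778), close to those of KLF2.

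KLF4 (ENSG00000136826, chromosome 9, 107484852 to 107490482, minus strand), a factor of epithelial differentiation and pluripotency, stood at 6.80, 5.9997 and 7.04 FPKM. The libraries labelled shUSP16 lay on either side of shControl, with ratios of 0.882 (0.795 to 0.979) and 1.03 (0.937 to 1.14), the latter 0.952 with sums of reads as totals. KLF2 has processed pseudogenes on chromosome 2 that resemble it only in part, at 75.8% identity over 1075 aligned bases for KLF2P1 and 73.2% over 492 for KLF2P4. KLF2P1 had more reads than KLF2 itself, 1350, 1058 and 932, and KLF2P4 had 472, 407 and 423. The sum of KLF2 and its 4 annotated pseudogenes had 2184 reads in shControl, 1350 of them from KLF2P1 and 360 from KLF2. Its ratios were 0.824 (0.773 to 0.879) and 0.764 (0.715 to 0.815). The shUSP16-2 value of the sum was the lower of the pair, unlike that of KLF2 alone. This sum describes mostly KLF2P1 and is not a second estimate of KLF2.

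By number, 9 of the 10 genes were lower than shControl in both libraries labelled shUSP16 and 0 were higher in both, where 32.4% of the 13852 genes fitted (mean level of 1 FPKM or more) were lower in both. At least 1.5-fold lower in both were EGR3, NR4A1, NR4A2 and NR4A3, 4 of 10, against 4.26% of all genes fitted. With sums of reads as totals EGR2, KLF2 and KLF6 joined them, making 7, against 6.26% of all genes fitted. In shUSP16-1 alone 8 genes were at least 1.5-fold lower, against 7.39%, and in shUSP16-2 alone 4, against 9.31%. At least 20% lower in both were 7 genes, against 10.2%, and at 2-fold it was 2, EGR3 and NR4A1, against 1.33%. These shares are given as background only, since this contrast chose the genes. NR4A3, with a mean under 1 FPKM, is counted with the 10 but is not among the genes fitted, here and below. The median difference on the log2(FPKM + 1) scale was -0.63 in shUSP16-1 and -0.43 in shUSP16-2 over all 10, beside 0.041 and 0.043 over all genes fitted. With sums of reads as totals the medians over all genes moved to -0.037 and -0.058, all 10 genes were lower in both (45.4% of all genes fitted were), and the medians of the 10 were -0.71 and -0.53. As these are bulk libraries, fewer cells expressing a gene and less RNA of it per cell cannot be told apart. Every one of these differences rests on 1 control library.

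**Figure D3:**
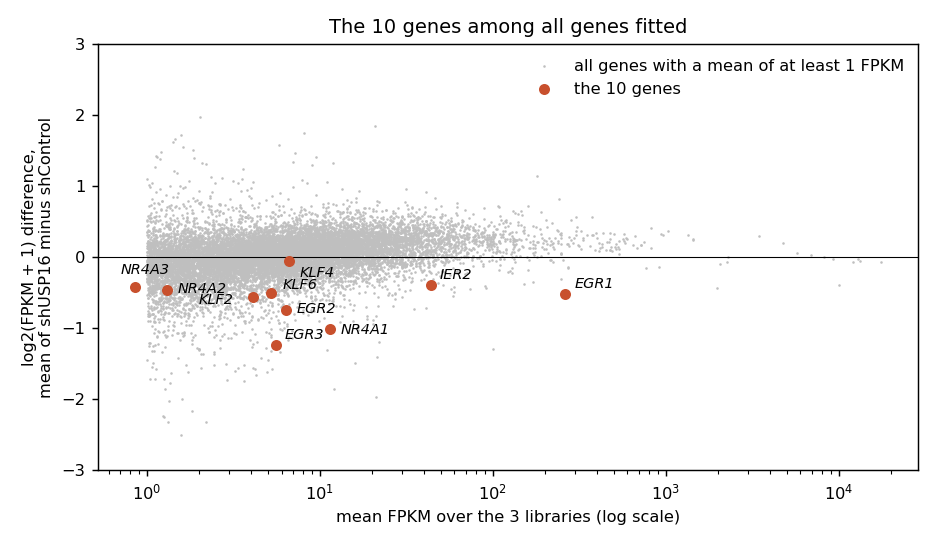
Mean difference of the libraries labelled shUSP16 from shControl on the log2(FPKM + 1) scale against mean FPKM (log axis), with all 13852 genes fitted in grey and the 10 genes in orange. EGR3 (-1.23) and NR4A1 (-1.01) lie lowest of the 10, and EGR1 (-0.52) is the most abundant.

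The libraries labelled shUSP16 also differed from each other, which is given as a description, since the genes were chosen with the levels of all 3 libraries in view. Of the 10 genes, 9 were higher in shUSP16-2 than in shUSP16-1, and for 8 the interval of the ratio lay above 1. Among all genes fitted, 52.2% were higher in shUSP16-2 and 27.2% had an interval above 1. The ratio of shUSP16-2 to shUSP16-1 was 1.56 (1.38 to 1.76) for EGR2, 1.51 (1.17 to 1.96) for NR4A3, 1.49 (1.32 to 1.69) for EGR3 and 1.34 (1.32 to 1.37) for EGR1. The interval included 1 for NR4A2 (0.972, 0.753 to 1.253) and KLF2 (1.20, 0.987 to 1.46). NR4A1 was near even at 1.11 (1.04 to 1.18). USP16 itself was 1.39 times as high in shUSP16-2 (1.27 to 1.53). With 1 library on each side this compares these libraries and not hairpins, and no relation between USP16 and these levels was tested.

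The pathway genes around the 10 were read from 10 lists, 80 of whose 97 genes could be fitted. The lists were chosen with earlier results of these data known, so counts and medians over a list are described and not tested. limma, fitted over all 13852 genes with Benjamini-Hochberg adjustment, called 0 genes (0% of those fitted), and therefore 0 pathway genes. The lowest adjusted p was 0.164, while 2008 genes had an unadjusted p under 0.05. limma restricted to protein-coding genes called 0.154% higher and 0.280% lower of 11069, among them JUN, ATF3 and DUSP1, all lower. voom, run on recovered reads with the authors' totals, called 1.47% higher and 1.04% lower of 13852, among them JUN, ATF3, FOSB, DUSP1 and CYR61 lower and FKBP5 higher. The FKBP5 call was lost with sums of reads as totals (voom adjusted p = 0.0753). Under those totals voom called 139 higher and 418 lower of 13852. Its calls then took in FOS (voom adjusted p = 0.0318), JUND (0.0331), MCL1 (0.0128), GADD45A (0.0231), PPP1R15A (0.0172), ZFP36 (0.0392) and ARC (0.0428), all lower. Of all genes fitted, 44.9% were higher and 32.4% lower in both libraries labelled shUSP16 (31.3% and 45.4% with sums of reads), with a median mean difference of 0.042, beside which the counts and medians of the lists below stand.

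Most of the other immediate early genes listed were lower in both libraries labelled shUSP16, given as a description of chosen lists. All 7 AP-1 genes fitted, of 8 listed, were lower in both libraries (median differences -0.68 and -0.37). JUN, an AP-1 subunit, was at 166, 65.0 and 70.1 FPKM (limma adjusted p = 0.164, or 0.00185 over protein-coding genes). ATF3, a stress-induced partner of JUN, was at 25.8, 11.3 and 12.9 FPKM (limma adjusted p = 0.212, or 0.0137 over protein-coding genes). FOSB was at 19.7, 9.79 and 15.1 FPKM (voom adjusted p = 0.0414, limma adjusted p = 0.341), and FOSL2, the smallest difference of the list, at 6.36, 6.27 and 5.57 FPKM. FOS, which answers to the same SRF input as EGR1, was at 109.9, 68.4 and 96.6 FPKM (limma adjusted p = 0.418). Its levels were in the same order as those of EGR1.

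Of 22 further immediate early genes fitted, 16 were lower in both and 3 higher in both (median mean difference -0.28). CYR61, a matricellular protein gene, was at 35.0, 10.9 and 19.9 FPKM (voom adjusted p = 0.00376, limma adjusted p = 0.292). DUSP1, a phosphatase gene that switches off MAP kinases, was at 26.8, 14.6 and 14.9 FPKM (voom adjusted p = 0.00558, limma adjusted p = 0.243). ZFP36, whose product speeds the decay of AU-rich mRNAs, was at 4.66, 2.58 and 2.41 FPKM (limma adjusted p = 0.279). ARC, a synaptic immediate early gene, was at 3.47, 1.17 and 2.55 FPKM (limma adjusted p = 0.387). TRIB1 differed least, at 52.8, 58.3 and 49.995 FPKM, and MYC lay furthest above shControl, at 114, 143 and 149 FPKM (limma adjusted p = 0.292).

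Of the genes upstream of the 10 (SRF, ERK, CREB and ERK5 lists), 0 were called by limma over all genes, by limma over protein-coding genes or by voom, and 4 had an unadjusted limma p under 0.05. Of 6 genes for SRF and its cofactors, 3 were lower in both and 2 higher in both (median mean difference -0.12), or 4 and 2 with sums of reads (median -0.21). SRF was at 18.8, 16.2 and 17.6 FPKM, ELK3 at 3.07, 1.84 and 2.69 FPKM, and MRTFB, the least different, at 2.46, 1.96 and 2.59 FPKM. ELK1, an ETS-type cofactor of SRF that ERK phosphorylates, was at 7.26, 9.37 and 9.36 FPKM. The ERK cascade was higher in both for 10 of 14 genes and lower in both for 3 (median 0.17), with HRAS the most different at 18.6, 26.4 and 22.9 FPKM and RPS6KA2 the least different at 1.51, 1.72 and 1.46 FPKM. Scaled by sums of reads, 7 of these 14 were higher in both, and the median was 0.081.

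Of 10 CREB pathway genes, 7 were higher in both and 0 lower in both, or 5 and 2 with sums of reads (median 0.15, or 0.063). EP300, a histone acetyltransferase gene, was at 8.51, 11.9 and 10.8 FPKM, and CRTC3, the least different, at 3.50, 3.46 and 3.50 FPKM. CREB1 was at 4.87, 5.38 and 6.05 FPKM. In the ERK5 and MEF2 pathway, which drives KLF2 and KLF4 in endothelium, 6 genes were fitted, 1 higher and 2 lower in both, or 1 and 5 with sums of reads (median -0.085, or -0.18). MAPK7, encoding ERK5, was at 7.34, 7.17 and 6.27 FPKM. With the authors' totals MAP2K5 had the largest difference at 5.06, 5.55 and 5.83 FPKM, and MAP3K3 the smallest at 5.56, 4.90 and 5.68 FPKM. Sums of reads changed this order, with MEF2A then the largest (-0.22) and MAP2K5 the smallest (0.051). Levels of mRNA do not report the activity of these kinases.

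The other KLF genes did not move one way. Of 9 fitted, 4 were higher in both and 3 lower in both, or 2 and 3 with sums of reads, and their median mean difference was 0.057, or -0.036 with sums of reads. KLF16 was at 12.5, 17.9 and 15.4 FPKM (limma adjusted p = 0.331), KLF9, a glucocorticoid-induced member, at 17.6, 15.5 and 12.0 FPKM (adjusted p = 0.423), and KLF13, the least different, at 10.1, 11.2 and 9.38 FPKM. None of the 9 was at least 1.5-fold lower in both. Because dexamethasone appears in the common protocol, glucocorticoid response genes were read beside these. Of 5 fitted, 1 was higher and 3 lower in both (median -0.33), or 1 and 4 with sums of reads (median -0.42). With the authors' totals PER1, KLF9 and DUSP1 were lower in both, and each is also counted in a list above. FKBP5, a co-chaperone gene of the glucocorticoid receptor, was at 7.11, 9.97 and 10.6 FPKM (voom adjusted p = 0.0422, limma adjusted p = 0.280), TSC22D3 at 13.7, 14.5 and 12.9 FPKM, and ZBTB16 had at most 0.0105 FPKM in any library. PER1, a clock gene, was at 4.46, 4.01 and 2.76 FPKM (limma adjusted p = 0.493).

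**Figure D4:**
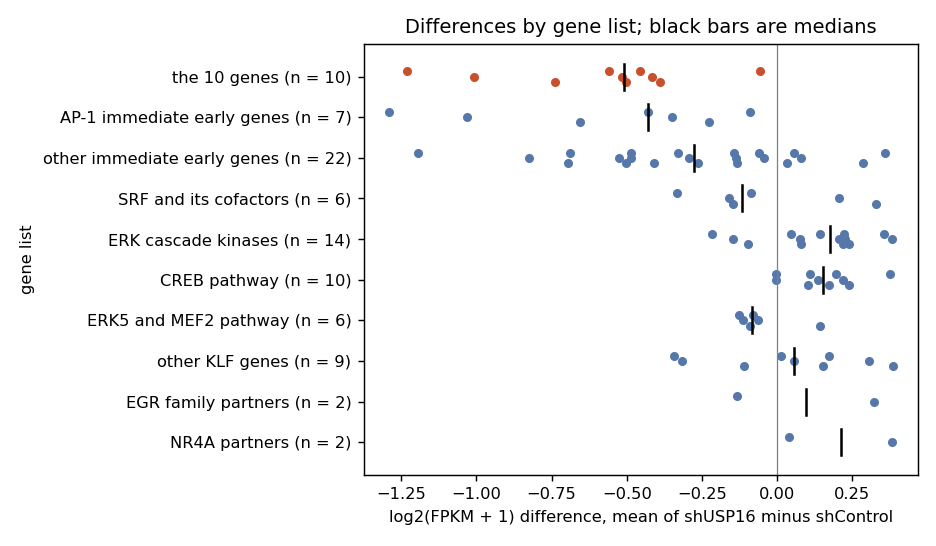
Difference of the mean of shUSP16 from shControl on the log2(FPKM + 1) scale, 1 point per gene and black bars at medians, for the 10 genes and 9 lists of genes that were fitted. The 10 genes and the 7 AP-1 genes lie below 0, while the ERK cascade (median 0.17) and CREB (median 0.15) lists lie mostly above it, or at 0.081 and 0.063 with sums of reads.

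Members were left out of a search for protein-coding genes whose pair of differences from shControl lay nearest to the medians of the 9 members fitted (-0.66 and -0.46). The nearest were TENT5A, CASC4, QRFPR, BCHE and SPEG, out of 7036 averaging 5 FPKM or more. The measure was the Euclidean distance over 2 differences from the same control, and it ran from 0.062 for TENT5A to 0.10 for SPEG. TENT5A, encoding a nucleotidyltransferase, was at 8.50, 5.25 and 5.81 FPKM, and BCHE, encoding butyrylcholinesterase, at 11.2, 7.22 and 8.14 FPKM. The list rests on 3 libraries and holds genes of no common family.

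In structure 7 of the 10 genes had a span under the median of protein-coding genes, and EGR2, NR4A3 (45037 bases) and NR4A1 (36676 bases) were above it. Their median gene span was 7465 bases, against 32855 bases for the 11069 protein-coding genes fitted, and their fullest coding transcript had a median of 4 exons against 9. KLF2 was the shortest at 3058 bases and EGR1 spanned 3826 bases with 2 exons. EGR2 had the longest span, 107905 bases, of which the counted length was 3689 bases. The NR4A genes had the most exons, 8 or 9 each.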

How the data were processed

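RNA-seq values of 3 HGC-27 libraries were grouped by their titles. The authors deposited 1 table of FPKM values per gene and library with gene length, per the file headers. Neither aligner, counter, strand setting nor RNA selection is stated in any source used here. GRCm38 and mm10 stand in the submitters' processing notes, yet all 58735 gene IDs, starts and ends equal those of human GENCODE 29, so coordinates are GRCh38. Multiplying FPKM by length gave whole reads for 100% of values above 0 (tolerance 0.01 reads). The authors' FPKM rest on totals that were 1.08, 1.01 and 0.994 times the sums of these reads in shControl, shUSP16-1 and shUSP16-2, so scaling by sums was tried too.

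limma 3.58.1 in R 4.3.3 compared groups on log2(FPKM + 1) with a mean trend over 13852 genes averaging 1 FPKM or more, Benjamini-Hochberg adjusted, threshold 0.05. The spread came from 1 residual degree of freedom (prior 4.05), the single control taken to vary as the others do. limma and voom were tested on simulated data. An exact permutation test cannot reach 0.05 with 3 libraries. Members and lists were chosen with earlier results of these data known. Named genes were USP16, the members, list genes (at least the largest and smallest difference in each list of 3 or more fitted) and the 5 nearest in pattern that are not members. Largest and smallest differences were ranked with the authors' totals, and in some lists sums of reads change the rank. Ratios carry exact binomial 95% intervals. KLF2 pseudogenes, EGR4 and structure were added after values were seen. Other software was matplotlib 3.10.9, scipy 1.17.1, pandas 2.3.3 and numpy 2.4.6 under Python 3.11.15.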

Additional observations from a re-analysis of the deposited data

How the results depend on the processing

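Of the 10 genes, 9 lay below shControl under each of 5 settings (a pseudocount of 0.1 FPKM, sums of reads, median ratio, and leaving out either library labelled shUSP16). KLF4 did not, at -0.16 without shUSP16-2 and 0.043 without shUSP16-1. The share of all genes fitted below shControl under each setting was not computed. Lower in both libraries were 32.4% of them with the authors' totals and 45.4% with sums of reads. This contrast chose the 10 genes, so their count is a description only. The count of genes at least 1.5-fold lower in both was 7 with sums of reads (6.26% of all genes fitted), 7 at 20% lower (10.2%) and 2 at 2-fold (1.33%), and 4 to 8 when either library labelled shUSP16 was left out, 8 without shUSP16-2 (7.39%) and 4 without shUSP16-1 (9.31%). The median over the 9 fitted, -0.52, was -0.67 with a pseudocount of 0.1 FPKM. limma called 0 of 13852 genes, but 13 of 7639 with a mean of at least 5 FPKM and 48 of 11069 with protein-coding genes only. voom called 348 of 13852 with the authors' totals and 557 of 13852 with sums of reads. Among pathway genes these counts were 1, 3, 6 and 12. Of the pathway genes 80 had a mean of 1 FPKM or more, but fewer entered the fit at a mean of at least 5 FPKM. The lists were chosen with earlier results known, so these counts are no test of a list. The cause of these changes in the counts was not tested. The voom split was 204 higher and 144 lower with the authors' totals, and 139 and 418 with sums of reads. Higher counts in shUSP16-2 than shUSP16-1, 9 of 10, were the same under both other scalings, which were added after seeing the data. Leaving out a library leaves no residual degrees of freedom, so no test was run there. No paired analysis was possible because the control has 1 library and no number in its label. With 101 to 251 reads per library, NR4A2 and NR4A3 are the least precise.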
